A study of Mus musculus with 8 samples.

Results

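The genes described here equip a B cell to make and export large amounts of protein: genes of plasma cells, of the endoplasmic reticulum (ER) folding and export machinery, and of the unfolded protein response. They were a list of 37 gene symbols, matched to the array's platform annotation with the probe set of highest mean kept for each gene. Of these, 36 were measured among 22180 genes; the probe set of Pdia4 carried more than 1 symbol and was not analysed here. The samples were B-1a cells, innate-like B cells that renew themselves in the body cavities, sorted from peritoneal washes of mice aged 5 weeks. Mutant mice (KO) were PTIPflox/flox, with loxP sites in both copies of the gene for PTIP, Paxip1, and carried a heterozygous Cre recombinase allele active in the B lineage. Control mice (labelled WT) were PTIP+/+ and carried the same Cre allele, so both groups share it. RNA of 29 KO and 22 control mice was divided into 4 pools per genotype, with 1 array per pool, and the sources used here do not give the number of mice in each pool or the sort gates.

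When proteins enter the ER faster than they fold, 3 membrane sensors respond. IRE1, the product of Ern1, splices Xbp1 mRNA; PERK, the product of Eif2ak3, slows translation and favours that of ATF4; ATF6 is cut to release a transcription factor. Their targets are chaperones, folding enzymes, translocation subunits and the machinery that returns misfolded proteins to the cytosol for degradation. Plasma cells need the XBP1 arm to secrete antibody, and B-1a cells are a main source of natural IgM. An array reads RNA amounts and reports neither splicing, cleavage nor phosphorylation.

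Many promoters of this response hold the ER stress element (ERSE), where NF-Y binds the CCAAT end and ATF6 or XBP1 the CCACG end. The matches are shown because they mark which genes carry this shared control sequence. The list was chosen to hold genes of this response, so their share with ERSE is not independent of that choice. RefSeq windows on GRCm38.p6, from 250 bases before to 50 bases after the gene start, were held for 32 of the 37 genes. Both strands were searched for ERSE, spelled as CCAAT, then 9 bases of any kind, then CCACG. It was in 9 of the 32 genes (28.1%) against 37 of all 27025 genes with a window (0.137%), and in 39 of the 32851 windows (0.119%). The related ERSE-II, spelled as ATTGG, then 1 base of any kind, then CCACG, was in Herpud1 alone among the 32 and in 12 of all genes (0.0444%). Each match is printed 5′ to 3′ in its CCAAT-to-CCACG or ATTGG-to-CCACG direction, with the fixed letters in capitals and the free spacer in lower case.
Hspa5: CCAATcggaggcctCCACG
Hsp90b1, farther match: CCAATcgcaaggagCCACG
Hsp90b1, nearer match: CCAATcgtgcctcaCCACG
Calr: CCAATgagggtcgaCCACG
Canx: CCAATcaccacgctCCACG
Creld2: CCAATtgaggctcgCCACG
Dnajc3: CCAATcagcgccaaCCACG
Pdia6: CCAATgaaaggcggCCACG
Derl3: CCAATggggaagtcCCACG
Syvn1: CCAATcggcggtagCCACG
Herpud1: ATTGGgCCACG

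The matches lay between 44 bases (Syvn1) and 212 bases (the farther of the pair in Hsp90b1) upstream of the start, counted from their first base on the gene's strand. That of Hspa5 was at chr2:34772025-34772043 on the plus strand, and that of Derl3 at chr10:75893242-75893260, where it read CCAAT to CCACG on the minus strand. Of the other motifs searched, the UPRE core TGACGTGG was in Txndc5 alone (0.714% of all genes). The cyclic AMP element TGACGTCA was in Ell2 alone (2.03% of all genes), and TGATGNAAN, the letters of the CHOP and ATF4 element, in Herpud1 and Txndc5 (4.5% of all genes). No matches of different motifs overlapped in these genes. A match is a description of letters and no evidence of binding.

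The genotype was seen first in the targeted gene itself. Paxip1 was 4.38 ± 0.54 in KO and 7.05 ± 0.13 in control (SD, n = 4 pools each, log2 scale), a difference of -2.67 (SE 0.22, limma adjusted p = 9.96e-05). The sources used here do not say whether its probe set covers the deleted exons. Of the B-1a markers, 10 of 11 were measured. By limma, 0 were called higher and 2 lower, against 1.49% and 2.1% of all genes. Cd5, which separates B-1a from other B cells, was 7.48 ± 0.19 in KO and 7.44 ± 0.15 in control, while the integrin chain Itgam and the transcription factor Zbtb32 fell, with differences of -1.68 and -1.11 (limma adjusted p = 0.000191 and 0.00256). Without a call, Spn (CD43) lay wholly below control at -0.52 and Ctla4 wholly above at 0.55. Array medians were 3.68 to 3.74, and values near them are dim. Genes of T cells and NK cells differed in level between pools. Averaged over 13 of 16 T cell markers, the KO pools in order read 7.40, 7.19, 5.34 and 5.92. Control pools ranged from 4.72 to 5.75. Of the 13 markers, 12 had positive differences and 0 were called by limma. At an unadjusted p under 0.05, 9 were higher, against 7.72% of all genes. The mean of 10 of 11 NK markers was between 4.52 and 5.82 in KO and between 3.69 and 4.61 in control, with 10 of 10 differences positive and 2 called.

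Of the secretory genes, 1 was called in each direction. A gene is described as called where limma's adjusted p over all genes was under 0.05. Of the 36 genes 1 rose, Jchain, and 1 fell, Fkbp11, where 1.49% of all genes were called higher and 2.1% lower, or 3.59% in either direction. Among genes above the median of all probe sets these shares were 2.61% and 3.89%. With p unadjusted and under 0.05, there were 2 higher and 10 lower of the 36, against 7.72% and 7.6% of all genes. The median difference of the 36 was -0.10 against 0.02 over all genes, and 22 of the 36 (61.1%) were below 0, as were 45.4% of all genes. The 4 KO values lay wholly below the 4 control values in 8 of the 36 (22.2%), against 5.09% of all genes and 8.67% of the genes above the median of all probe sets. They lay wholly above in 2 of the 36 (5.56%), against 5.41% and 8.24%. Of the 36 differences 29 (80.6%) were within 0.25 of 0, as were 84.7% over all genes, and the widest 95% confidence interval reached 0.38 to either side of its estimate.

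**Figure D1:**
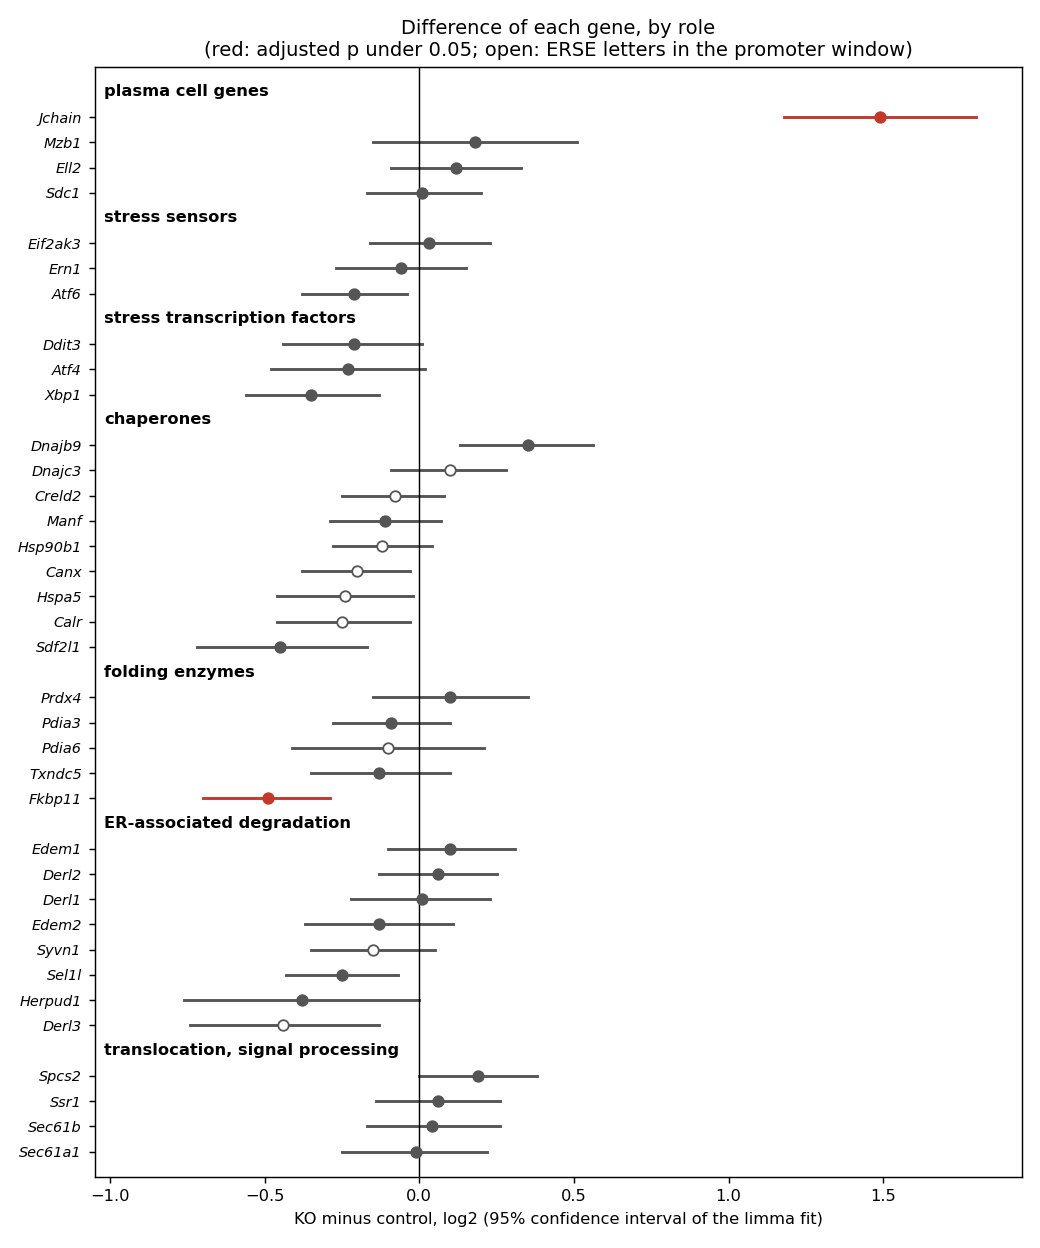
Difference between KO and control for each of the 36 genes on the log2 scale, grouped by role, with the 95% confidence interval of the limma fit. Jchain (1.49) and Fkbp11 (-0.49), in red, were called; open points mark the 9 genes with ERSE letters in the promoter window, 8 of which lie below 0.

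Jchain, whose product is the joining chain that links IgM pentamers and IgA dimers, stood 2.81-fold higher in KO. In pool order, its log2 values were 5.44, 5.13, 5.72 and 5.75 for KO, beside 4.04, 3.98, 3.85 and 4.21 for control. All pool values that follow keep this order. Every KO pool was above every control pool, and the gap between the groups exceeded the range within either. The difference was 1.49 (SE 0.14, 95% interval 1.18 to 1.80, limma adjusted p = 0.000197). Exact permutation of the pools, two-sided with 70 assignments, gave p = 0.0286. It is the smallest this design allows, and every gene without overlap between the groups has it, called or not. Control values near 4 are close to the array medians, where RMA values flatten and a fold is understated. In bulk samples, a larger share of cells that express a gene and more RNA per cell cannot be told apart. The T cell marker mean was lowest among KO pools in pools 3 and 4, where Jchain was highest. In control that mean was 5.63, 5.75, 4.96 and 4.72, and Jchain was lowest in pool 3 and highest in pool 4. The part of T cell RNA in the Jchain difference was not tested. Without KO pools 1 and 2 the difference was 1.72, and 1.74 after adjustment for T cell marker level (limma adjusted p = 0.00045 and 0.000659). Over all 20 alternatives the adjusted p was 5.96e-05 to 0.0227.

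The promoter window of Jchain is shown because it is the gene that rose; it held none of the 5 motifs searched. It spans chr5:88527848-88528147 on the minus strand of GRCm38.p6 and is printed 5′ to 3′ along the gene.
Jchain: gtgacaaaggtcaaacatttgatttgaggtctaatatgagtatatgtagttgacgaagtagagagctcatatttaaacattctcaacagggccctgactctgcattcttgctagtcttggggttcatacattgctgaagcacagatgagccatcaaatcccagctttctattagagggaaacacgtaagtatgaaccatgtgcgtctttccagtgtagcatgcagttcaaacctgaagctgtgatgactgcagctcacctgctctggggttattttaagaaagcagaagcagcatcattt

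Sdc1, Mzb1 and Ell2, the other plasma cell genes among the 36, had smaller differences and were not called. Sdc1 (CD138), the surface proteoglycan used to sort plasma cells, was 3.66, 3.61, 3.59 and 3.55 in KO against 3.72, 3.63, 3.57 and 3.44 in control. All 8 values lay at or near the array medians, and the difference was 0.01 (95% interval -0.17 to 0.20). Tnfrsf17, the survival receptor BCMA of plasma cells, ranged from 3.04 to 4.00 in KO and from 2.90 to 3.74 in control. Mzb1, an ER co-chaperone abundant in innate-like B cells, was 8.99, 9.36, 9.58 and 9.70 in KO against 9.19, 9.32, 9.40 and 9.01 in control. Its groups overlapped, with both the lowest and the highest value in KO, and the difference was 0.18 (95% interval -0.15 to 0.51). It was 0.32 without KO pool 1, 0.12 without KO pool 3, 0.08 without KO pool 4 and 0.11 without control pool 4. Without KO pools 1 and 2 it was 0.41, and 0.40 after adjustment for T cell marker level, uncalled by limma in each of these. Ell2, an elongation factor that favours the secreted form of immunoglobulin mRNA, was 7.58, 7.82, 7.70 and 7.85 in KO against 7.57, 7.48, 7.74 and 7.70 in control, a difference of 0.12 (95% interval -0.09 to 0.33).

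**Figure D2:**
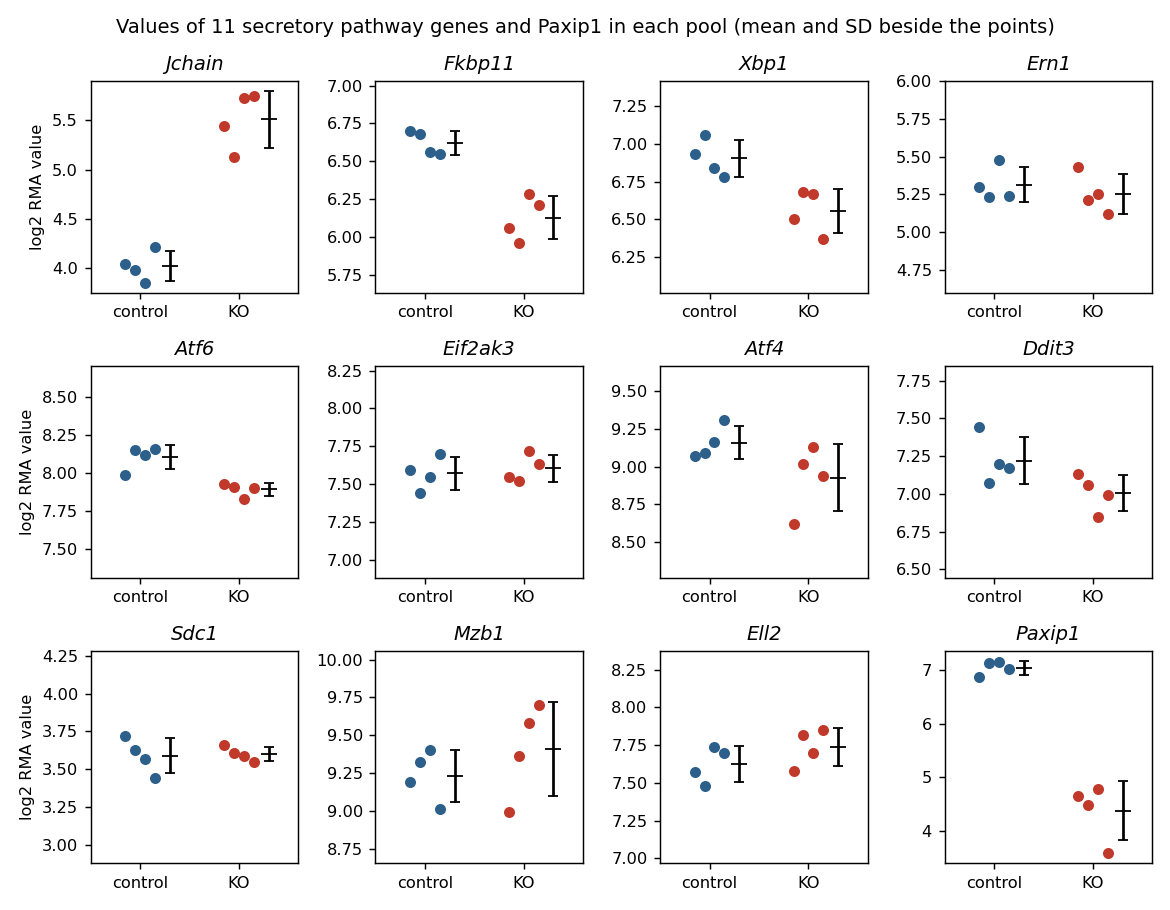
Log2 RMA values of 11 secretory pathway genes and of Paxip1 in each of the 4 control (blue) and 4 KO (red) pools, with the mean and SD at the side; the axes do not start at 0. The groups are apart for Jchain, Fkbp11, Xbp1, Atf6 and Paxip1 and overlap for the other 7.

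Among the sensors, the values of Ern1 and Eif2ak3 overlapped between the groups. Ern1 was 5.43, 5.21, 5.25 and 5.12 in KO against 5.30, 5.23, 5.48 and 5.24 in control, a difference of -0.06 (95% interval -0.27 to 0.15). Eif2ak3 was 7.55, 7.52, 7.72 and 7.63 in KO against 7.59, 7.44, 7.55 and 7.70 in control, a difference of 0.03 (95% interval -0.16 to 0.23). Atf6 was 7.93, 7.91, 7.83 and 7.90 in KO against 7.99, 8.15, 8.12 and 8.16 in control. The groups did not overlap, yet the difference of -0.21 (SE 0.08) was not called (limma adjusted p = 0.201).

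All 3 transcription factors of the response had differences below 0, and none was called by limma, where 3.59% of all genes were. At an unadjusted p under 0.05, 1 of the 3 was lower, against 7.6% of all genes. Xbp1, which drives the secretory programme of plasma cells, was 6.50, 6.68, 6.67 and 6.37 in KO against 6.93, 7.06, 6.84 and 6.78 in control. Each KO pool was below each control pool, and the difference was -0.35 (SE 0.10, 95% interval -0.56 to -0.13, limma adjusted p = 0.0961, 0.055 to 0.235 over its alternatives). The sources used here do not say whether its probe set separates spliced from unspliced mRNA. Atf4, the translationally controlled effector of PERK, was 8.62, 9.02, 9.13 and 8.94 in KO against 9.07, 9.09, 9.16 and 9.31 in control, a difference of -0.23 (adjusted p = 0.377). KO pool 1 was the lowest by a wide margin, and the difference was -0.13 without it and -0.04 after adjustment for T cell marker level. Ddit3, the pro-apoptotic factor CHOP, was 7.13, 7.06, 6.85 and 6.99 in KO against 7.44, 7.07, 7.20 and 7.17 in control, a difference of -0.21 (adjusted p = 0.350).

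Of the 9 chaperones and stress-induced ER proteins, limma called 0, where 3.59% of all genes were called. At an unadjusted p under 0.05, 1 was higher and 4 were lower, against 7.72% and 7.6% of all genes. Differences were below 0 in 7 of the 9, with a median of -0.12 over the 9. In 4 of the 9 (44.4%) every KO pool lay below every control pool: Sdf2l1, Canx, Hsp90b1 and Creld2. That held for 5.09% of all genes and 8.67% of those above the median of all probe sets. Sdf2l1, a stress-induced partner of the chaperone BiP, was 5.50, 6.11, 5.89 and 6.05 in KO against 6.35, 6.32, 6.40 and 6.26 in control. KO pool 1 stood lowest; the difference was -0.45 (SE 0.13, adjusted p = 0.0913) and -0.31 without that pool. Canx, the membrane lectin calnexin, differed by -0.20 (SE 0.08), Hsp90b1, the ER form of HSP90, by -0.12, and Creld2, an ER stress-inducible protein, by -0.08. Hspa5, which encodes BiP itself, was 7.39, 7.49, 7.34 and 7.24 in KO against 7.45, 7.81, 7.54 and 7.63 in control, a difference of -0.24 (SE 0.10, adjusted p = 0.264) with overlapping groups. Calr, the soluble lectin calreticulin, differed by -0.25 and Manf, a secreted ER stress protein, by -0.11.

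Dnajb9 and Dnajc3 were the chaperone genes with differences above 0. Dnajb9 encodes ERdj4, a BiP co-chaperone and inducible XBP1 target, and its values were 7.97, 8.00, 7.71 and 8.10 in KO and 7.54, 7.50, 7.65 and 7.68 in control. Every KO pool was above every control pool, with KO pool 3 the closest. The difference was 0.35 (SE 0.10, 95% interval 0.13 to 0.56), and limma did not call it (adjusted p = 0.0889, 0.0298 to 0.361 over its alternatives). Dnajb9 was called without KO pool 3 (0.43, adjusted p = 0.0298) and with an intensity trend and robust prior (adjusted p = 0.0409). Dnajc3, another co-chaperone of BiP, differed by 0.10 with overlapping groups. That the directions of Dnajb9 and Xbp1 differ was not tested.

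Fkbp11, an ER peptidyl-prolyl isomerase characteristic of antibody-secreting cells, was the gene that fell. Its values were 6.06, 5.96, 6.28 and 6.21 in KO and 6.70, 6.68, 6.56 and 6.55 in control. The groups did not overlap, and KO was 1.41-fold lower, a difference of -0.49 (SE 0.09, 95% interval -0.70 to -0.29, limma adjusted p = 0.0148). Exact two-sided permutation gave p = 0.0286, the value of every gene without overlap between the groups, called or not. The call held when any single pool was left out, with differences between -0.54 and -0.44. It was lost without KO pools 1 and 2, the pools with the highest T cell marker mean and the lowest Fkbp11, at -0.37 (adjusted p = 0.149). Adjustment for T cell marker level ended it too, at -0.40 (adjusted p = 0.182, 0.00899 to 0.182 over all alternatives). Over all genes, calls went from 3.59% in the main fit to 1.44% without those pools and 1.31% with the adjustment. The part of the T cell RNA in the Fkbp11 difference was not tested.

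Fkbp11 has a pair of RefSeq starts, and both windows are shown because it is the gene that fell; neither held any of the 5 motifs. They lie at chr15:98728149-98728448 and chr15:98727578-98727877 on the minus strand of GRCm38.p6.
Fkbp11, upstream start: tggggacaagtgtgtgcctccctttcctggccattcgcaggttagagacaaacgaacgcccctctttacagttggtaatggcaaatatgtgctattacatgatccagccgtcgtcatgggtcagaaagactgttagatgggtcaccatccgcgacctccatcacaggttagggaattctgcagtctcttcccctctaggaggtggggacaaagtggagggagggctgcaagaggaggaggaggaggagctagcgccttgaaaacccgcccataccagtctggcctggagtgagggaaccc
Fkbp11, downstream start: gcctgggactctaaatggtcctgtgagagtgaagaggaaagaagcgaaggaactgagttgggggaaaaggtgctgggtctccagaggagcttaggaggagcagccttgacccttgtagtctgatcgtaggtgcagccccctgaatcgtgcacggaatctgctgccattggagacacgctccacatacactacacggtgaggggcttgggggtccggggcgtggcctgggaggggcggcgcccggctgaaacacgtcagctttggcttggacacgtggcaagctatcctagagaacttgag

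The other folding enzymes overlapped between the groups and none was called. The disulfide isomerases Pdia3, Pdia6 and Txndc5 differed by -0.09, -0.10 and -0.13, and Prdx4, the ER peroxiredoxin, by 0.10. Pdia6 was 6.93 in KO pool 1 and between 7.40 and 7.57 in the other KO pools, against 7.20 to 7.58 in control. Without KO pool 1 its difference was 0.03, and it was 0.03 after adjustment for T cell marker level. KO pool 1 held the lowest KO value in 11 of the 36 genes (30.6%), and over all genes it did so in 26.2%.

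**Figure D3:**
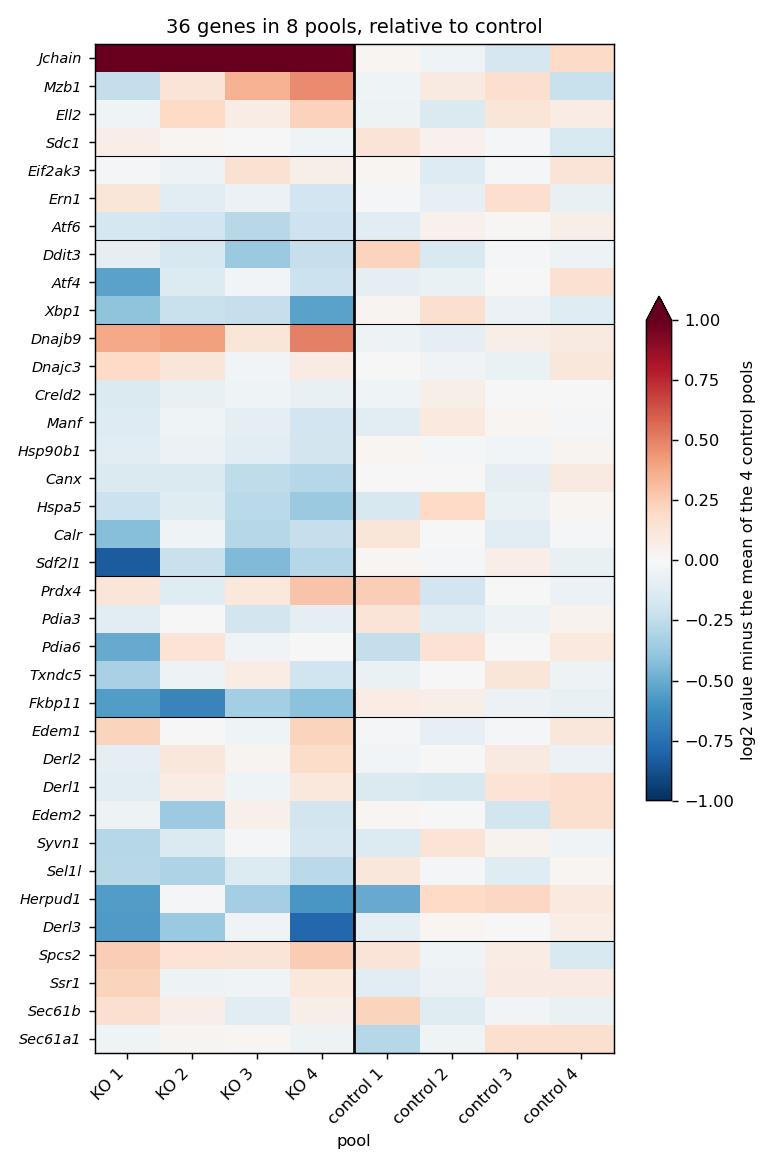
Log2 value of each of the 36 genes in each pool minus the mean of its 4 control pools, with genes grouped by role and the colour scale ending at 1. Jchain exceeds 1 in all 4 KO pools, Fkbp11 is below control in all 4, and Sdf2l1 is below control in all 4 with KO pool 1 the lowest.

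Genes of ER-associated degradation, which retrieves misfolded proteins for the proteasome, had no limma call among 8, where 3.59% of all genes were called. At an unadjusted p under 0.05, 3 of the 8 were lower, against 7.6% of all genes. Their median was -0.14, and 5 differences were below 0. Derl3, a channel-associated derlin of secretory cells, was 4.13, 4.33, 4.66 and 3.91 in KO against 4.61, 4.72, 4.70 and 4.76 in control. KO pool 3 reached the control range while the other KO pools were below it. The difference was -0.44 (SE 0.14, adjusted p = 0.138), and without KO pool 3 it was called at -0.57 (adjusted p = 0.0192; 0.0192 to 0.533 over its alternatives). Sel1l, the adaptor of the HRD1 ligase, was 7.21, 7.18, 7.35 and 7.22 in KO against 7.60, 7.47, 7.37 and 7.51 in control, with the KO pools lower throughout and a difference of -0.25 (SE 0.08, adjusted p = 0.159). The ligase gene Syvn1 differed by -0.15 with overlapping groups.

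Herpud1, a membrane scaffold of the same complex and the gene with the ERSE-II letters, was 7.09, 7.63, 7.31 and 7.07 in KO. In control it was 7.15, 7.85, 7.86 and 7.75, so that control pool 1 lay within the KO range and the other 3 control pools above it. The difference was -0.38 (SE 0.17, adjusted p = 0.325), and -0.55 without control pool 1. Edem1 and Edem2, which select misfolded glycoproteins, differed by 0.10 and -0.13, and the derlins Derl1 and Derl2 by 0.01 and 0.06. A second Edem1 probe set was 7.45, 7.40, 7.29 and 7.50 in KO against 7.22, 7.14, 7.15 and 7.10 in control, a difference of 0.26, with no overlap. With that probe set in place of the other, limma's adjusted p for Edem1 was 0.131, the lowest over its alternatives, which reached 0.856. Of the 7 genes with a second probe set, 4 had the opposite sign there (Derl2, Ell2, Sdc1 and Ssr1), each with a difference between -0.17 and -0.03.

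The entry machinery of the ER was the group nearest to control. Sec61a1 and Sec61b, subunits of the translocation channel, differed by -0.01 and 0.04, and Ssr1, of the channel's associated complex, by 0.06. Spcs2, a subunit of signal peptidase, was 8.28, 8.17, 8.16 and 8.29 in KO against 8.16, 7.99, 8.11 and 7.88 in control, a difference of 0.19 (SE 0.09, adjusted p = 0.337) with groups that share their boundary value. None of the 4 was called, where 3.59% of all genes were. All 4 were within 0.25 of control, as were 84.7% of all genes.

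The 9 genes with ERSE letters had small differences, most of them below 0. Their median difference was -0.15, with a range from -0.44 (Derl3) to 0.10 (Dnajc3), and 8 of the 9 were below 0. The other 22 measured genes with a window had a median of -0.02, and 11 of them were below 0. In 3 of the 9 (33.3%: Canx, Creld2 and Hsp90b1) the KO values lay wholly below control. The same held in 4 of the other 22 (18.2%), 5.09% of all genes and 8.67% of those above the median of all probe sets. None of the 9 was called by limma, where 3.59% of all genes were. At an unadjusted p under 0.05, 4 of the 9 and 5 of the 22 were lower, against 7.6% of all genes. This division was not tested. The windows of Hspa5, the textbook ERSE promoter, and of Derl3, the ERSE gene with the lowest difference, show the element in its place, in capitals. They span chr2:34771840-34772139 and chr10:75893148-75893447, both on the plus strand, so that the Derl3 element appears as its reverse complement.
Hspa5: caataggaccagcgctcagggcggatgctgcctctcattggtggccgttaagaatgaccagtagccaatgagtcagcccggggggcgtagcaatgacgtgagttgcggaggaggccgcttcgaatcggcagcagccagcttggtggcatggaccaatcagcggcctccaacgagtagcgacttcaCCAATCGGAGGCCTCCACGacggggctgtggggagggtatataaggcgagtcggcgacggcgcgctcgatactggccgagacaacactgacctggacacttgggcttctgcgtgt
Derl3: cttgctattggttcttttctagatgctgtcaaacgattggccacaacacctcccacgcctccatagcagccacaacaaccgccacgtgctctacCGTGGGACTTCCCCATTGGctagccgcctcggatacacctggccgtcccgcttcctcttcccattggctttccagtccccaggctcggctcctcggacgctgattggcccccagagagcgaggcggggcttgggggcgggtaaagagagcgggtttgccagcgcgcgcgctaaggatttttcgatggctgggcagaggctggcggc

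The wider pathway was followed through 9 lists, with 177 of their 182 distinct symbols measured. Of the 177, 2 were called higher (Slamf7 and Foxo1), beside 1.49% of all genes. Lower calls numbered 5 (Cnpy3, Aup1, Creb3l2, Eaf2 and Ciita), beside 2.1%. Differences were above 0 in 107 of the 177 and below 0 in 70 (39.5%, against 45.4% of all genes). KO values lay wholly above control in 20 (11.3%) and wholly below in 12 (6.78%). Over all genes these shares were 5.41% and 5.09%, and above the median of all probe sets 8.24% and 8.67%. Neither the translocon list (21 genes, median 0.00), N-glycosylation (20 genes, median 0.04), COPII and ER-to-Golgi transport (25 genes, median 0.06) nor the PERK and ATF4 response (24 genes, median 0.00) held a called gene. At an unadjusted p under 0.05 these 4 lists held, in this order, 1, 1, 2 and 1 genes higher and 1, 1, 1 and 5 lower. Over all genes the shares were 7.72% higher and 7.6% lower. The PERK and ATF4 list had 12 differences on either side of 0.

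In the ER lists with a called gene, that gene fell while the list median was positive. Cnpy3, a folding chaperone of Toll-like receptors, was the called gene among 22 chaperones and oxidation enzymes (median 0.07): it fell by 0.51 (SE 0.10, limma adjusted p = 0.0147). Aup1, a membrane factor of degradation, was that among 18 genes (median 0.09), falling by 0.38 (SE 0.08, adjusted p = 0.0310). Creb3l2, an ER-anchored factor related to ATF6, was that among 16 genes (median 0.07): it was 4.67, 4.89, 4.50 and 4.44 in KO against 5.50, 4.97, 5.57 and 5.36 in control, falling by 0.72 (SE 0.14, adjusted p = 0.0185). The call of Aup1 was lost without any single pool other than KO pool 3, and that of Creb3l2 without KO pool 4 or control pool 1, 3 or 4. All 3 calls were lost after adjustment for T cell marker level, with differences of -0.40, -0.33 and -0.81 for Cnpy3, Aup1 and Creb3l2 and larger SEs (0.12, 0.11 and 0.19). Those of Cnpy3 and Aup1 were also lost without KO pools 1 and 2, at -0.43 and -0.33. Over all alternatives adjusted p reached 0.187, 0.244 and 0.126 for Cnpy3, Aup1 and Creb3l2.

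Regulators that push B cells toward or away from the plasma cell state did not move as one. Of 19 plasma cell identity genes (median 0.06), Slamf7, a receptor of plasma cells and NK cells, rose: it was 9.68, 9.69, 9.75 and 9.67 in KO against 8.91, 8.71, 8.90 and 8.98 in control, a difference of 0.82 (SE 0.08, adjusted p = 0.00031). The NK marker means of the KO pools ran from 4.52 to 5.82, and the part of NK cell RNA in the Slamf7 difference was not tested. Eaf2, a partner of ELL elongation factors, fell by 0.34 from values near the array medians, and its call was lost without any single pool (adjusted p up to 0.222 over its alternatives).

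Prdm1, which encodes the plasma cell regulator Blimp-1, was 5.26, 5.09, 5.14 and 5.28 in KO against 5.03, 5.04, 4.87 and 5.09 in control. Before rounding, every KO pool of Prdm1 was above every control pool, though the closest values both round to 5.09. The difference of 0.19 (95% interval 0.00 to 0.37) was not called (limma adjusted p = 0.327). Irf4, needed for plasma cell formation, was 7.53, 7.70, 7.49 and 7.70 in KO against 7.74, 7.97, 8.03 and 8.02 in control. Every KO pool of Irf4 was below every control pool; the difference of -0.34 (SE 0.10) was not called (adjusted p = 0.0881). It was called among the genes above the median of all probe sets (adjusted p = 0.0495) and with an intensity trend and robust prior (adjusted p = 0.0400), and adjusted p reached 0.336 over its alternatives.

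Of 12 genes of the B cell programme that opposes the plasma cell state (median 0.05), Ciita, the master regulator of MHC class II, fell by 0.73 (SE 0.10, adjusted p = 0.00291). Foxo1, a transcription factor of resting B cells, rose by 0.42 (SE 0.09, adjusted p = 0.0308). Its call was lost without any single pool, and limma adjusted p reached 0.0993 over its alternatives. Foxo1 has 2 probe sets. The one of largest variance gave 0.55 (limma adjusted p = 0.00498), and their mean 0.49 (limma adjusted p = 0.00866). Pax5 and Bach2, which repress the plasma cell programme, differed by -0.02 (95% interval -0.19 to 0.15) and -0.09 (95% interval -0.36 to 0.18).

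**Figure D4:**
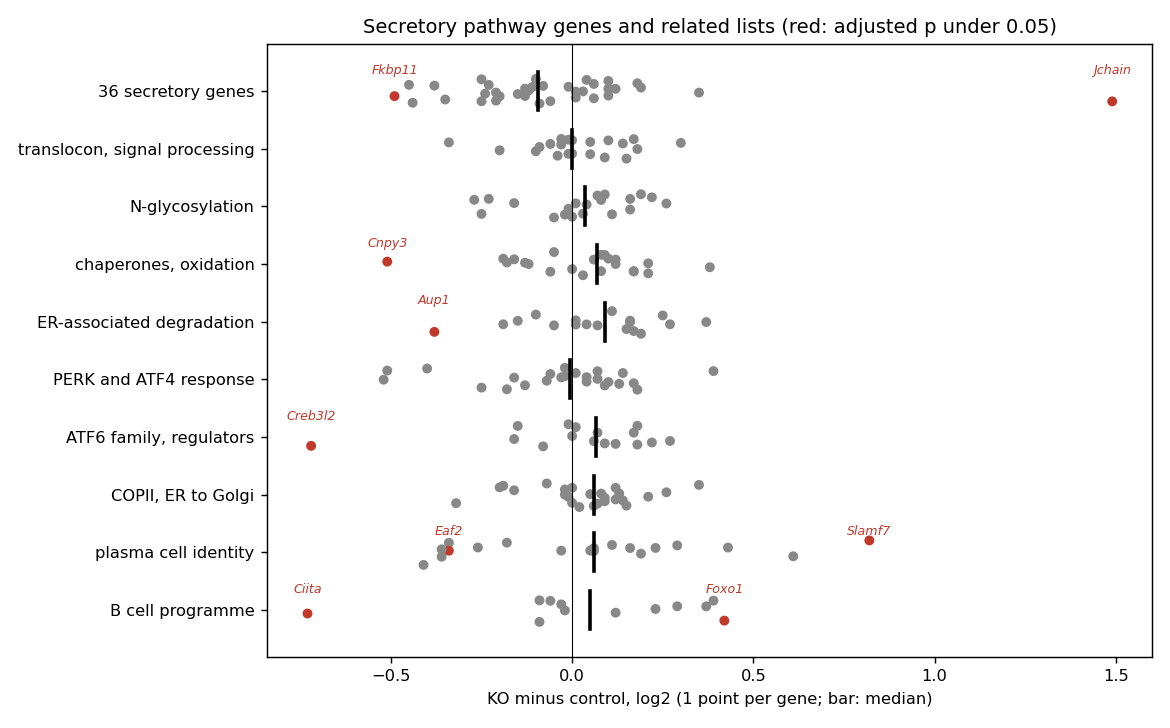
Difference between KO and control on the log2 scale for each of the 36 secretory genes and for the genes of 9 related lists, 1 point per gene, with the median of each list as a bar. The 9 called genes are in red and named; the medians of the lists lie between -0.10 and 0.09.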

How the data were processed

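RNA of 8 pools of sorted B-1a cells (4 KO, 4 control) was measured on Affymetrix arrays. The deposited log2 values of 41345 probe sets (1.37 to 13.8) were made by the authors with RMA in R 3.2.2, per the submitters' processing notes; the sources used here give no package or genome build. RMA sets all arrays to 1 distribution, so differences are relative to other genes, and folds of dim genes are understated. Precision is limited by the 8 arrays.

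Of the probe sets, 23521 had exactly 1 symbol in the platform annotation; 1814 had several and were left out, and 16010 were not listed. The probe set with the highest mean was kept, leaving 22180 genes. KO was compared with control by limma 3.58.1 in R 4.3.3 (lmFit, eBayes, two-sided, Benjamini-Hochberg over all genes, adjusted p under 0.05), tested on simulated data. Intervals are 95% intervals of that fit. The genes and lists were chosen with earlier results of these data known. Every gene of the list is named, with pool values for called genes of the list, sensors, transcription factors and plasma cell genes. Of each further list at most the 4 called genes with the smallest p are named, with Prdm1, Irf4, Pax5 and Bach2. The other pool values printed, and Tnfrsf17, Cd5, Itgam, Zbtb32, Spn and Ctla4, were chosen after their values were seen. Lists were described by counts and medians; list symbols were matched directly or through a RefSeq synonym. Promoter windows are from RefSeq (GRCm38.p6). The 20 alternatives covered probe set choice, genes tested, scaling, variance prior, array weights, threshold, replicate block, a T cell marker covariate and omission of pools.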

Additional observations from a re-analysis of the deposited data

Results flagged for a closer look

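Herpud1 in control pool 1 lay far from the other control pools, at 7.15 against 7.75 to 7.86; the gap was 0.848 of the range of the 4 pools, past Dixon's 95% limit for groups of 4. It was 1 of 96 groups examined, and chance alone flags about 5% of groups. The mean of the mast cell markers was 4.14 in control pool 1 and between 3.06 and 3.29 in the other control pools, and its part in the Herpud1 value was not tested.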

How the results depend on the processing

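Jchain kept its direction and its call in all 20 alternatives (1.41 to 1.74). Fkbp11 kept its direction in all 20 and its call in 15. Its call was lost without moderation of the variance (limma adjusted p = 0.0603), at an adjusted p under 0.01, with the replicate block (0.05, just above the threshold), with the T cell covariate and without KO pools 1 and 2. In each of these 5 settings 1 of the 36 genes was called, against 2 in the main fit. An intensity trend and robust prior gave 3 of the 36, with Dnajb9 added. Leaving out 1 pool gave 2 to 4 of the 36 called (4 without KO pool 3, with Derl3 and Dnajb9 added), 479 to 758 of all genes (main count 797) and 3 to 6 of the list genes (main count 7). Without moderation 303 of all genes and 2 list genes were called, at 0.01 311 and 2, with the T cell covariate 291 and 2, and without KO pools 1 and 2 320 and 3; the last pair of settings gave the 36 genes a median difference of -0.07 and -0.06. Both settings leave fewer degrees of freedom. The list genes numbered 11 among genes above the median of all probe sets and 12 with an intensity trend and robust prior. The replicate block left 666 of all genes and 5 list genes. Without centring, KO and control arrays correlated by 0.986 to 0.989. After each gene was centred on its group mean, same-numbered pools correlated by 0.11, 0.04, 0.04 and 0.04. With this centring KO pool 3 correlated best with control pool 4, and the numbers were not taken to pair the pools.

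Signs turned only for genes near 0, none of them called. With the mean of all probe sets, Sdc1 and Derl2 were -0.01 and Ssr1 -0.06; with the probe set of largest variance, Derl2 was -0.07 and Ssr1 -0.17; with arrays centred, Derl1 was 0.00. With the T cell covariate, Sdc1 and Sec61b were -0.07, Pdia6 0.03, and Sec61a1 and Pax5 0.07. Without KO pools 1 and 2, Sdc1 was -0.02, Sec61b -0.03 and Pax5 0.03. With 1 pool left out, the ranges were -0.05 to 0.06 for Derl1, -0.04 to 0.06 for Sdc1, -0.18 to 0.03 for Pdia6, -0.01 to 0.08 for Eif2ak3, -0.11 to 0.04 for Sec61a1 and -0.04 to 0.01 for Pax5. The cause of these changes was not tested.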
